A study of Mus musculus with 24 samples.

Results

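The comparison set suspension cultures against monolayer cultures of P19 mouse embryonal carcinoma cells, a pluripotent tumour-derived line, at the stage labelled D2. Its members are the 3 suspension D2 RNA samples and the 3 monolayer D2 RNA samples, chosen by their labels, which are 6 of the 12 RNA samples of the series. The other 6 are suspension and monolayer samples at D1, and they entered only the shared estimate of the spread and the values given beside D2. The series asks how cell aggregation affects gene expression early in the differentiation of such cells. All groups grew in alpha medium with fetal bovine and calf serum, from a culture described as clonal, so 1 cell line stands behind every value. The labels do not spell out D, name no inducer, and do not say whether replicates were separate cultures, so p-values measure only the spread between these samples, which may be technical.

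Each RNA was hybridised to 2 Affymetrix chips, MOE430A and MOE430B, and each probe set has 1 deposited signal per array, a brightness on a linear scale. Median signals of the D2 arrays lay between 578.7 and 636.7 on MOE430A and between 758.9 and 914.3 on MOE430B. On log2 values, D2 arrays of MOE430A correlated at 0.937 to 0.959 within suspension, at 0.941 to 0.958 within monolayer and at 0.914 to 0.955 between the cultures. On MOE430B the same ranges were 0.757 to 0.837, 0.766 to 0.827 and 0.730 to 0.853. Wash batches here are defined from the scanner files, by fluidics station and by whether the time in the field named Hybridize Date fell before or after noon. By this rule both replicate 3 RNAs came in a later wash run than the other D2 arrays. Suspension 1 shared a wash batch with monolayer 2, and suspension 2 with monolayer 1. Ribosomal 18S signal from the 3' control probe set of MOE430A was 60085 ± 3424 in suspension and 45450 ± 12762 in monolayer (SD, n = 3; two-sided exact permutation p = 0.3). The beta-actin 3' to 5' ratio there was 1.16 ± 0.09 in suspension and 1.12 ± 0.11 in monolayer (SD, n = 3; exact permutation p = 0.5). The control probe set named MUR_b2 on that chip had no overlap between cultures, at 3736 ± 63.8 in suspension and 2880 ± 344 in monolayer (SD, n = 3; exact permutation p = 0.1, the lowest value this design allows).

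As background, attached cells spread on a surface, pull on it through actin stress fibres and lay down matrix, and in that state the coactivator YAP sits in the nucleus with TEAD factors and drives genes such as Ccn1 and Ccn2. Rounded or crowded cells activate the Hippo kinases, which hold YAP in the cytoplasm. P19 cells in suspension form aggregates, and aggregation is the step from which such cells are taken towards mesoderm or neurons with chemical inducers.

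The label of pluripotent cells was met in both cultures by the signals of Pou5f1, Nanog and Sox2. Pou5f1, the core pluripotency factor, read 29151, 35229 and 34755 in suspension and 34717, 30041 and 42476 in monolayer, a log2 difference (suspension minus monolayer, here and throughout) of -0.10 ± 0.16 (SE). Nanog read 7856, 5059 and 5755 in suspension and 4593, 3709 and 4289 in monolayer, a log2 difference of 0.54 ± 0.18. Sox2 read 5767, 6524 and 5019 in suspension and 6972, 7395 and 6693 in monolayer (-0.29 ± 0.16). Nanog and Sox2 did not overlap between cultures, in opposite directions. Sall4 differed by 0.38 ± 0.18, Lin28a by -0.37 ± 0.14, Utf1 by -0.29 ± 0.16 and the surface coreceptor gene Tdgf1 by 0.32 ± 0.20. None of these genes passed the test. These are bulk RNA values, in which fewer cells of a type and less RNA per cell cannot be told apart.

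At D2, suspension cells had less mRNA of the YAP-responsive genes Ccn1, Ccn2, Ajuba and Amotl2, of the basement membrane collagen Col18a1, of the matrix protein gene Sparc, of the actin-binding protein gene Cald1, of the growth factor gene Gdf3 and of Irak1bp1. The endocytic receptor gene Lrp2 was lower by 1 probe set, while its brightest one overlapped between cultures. They had more of Cbr3, Nudt6 and the transcript 4930542N06Rik. In limma, 14 of 26516 tested probe sets passed at an adjusted p under 0.05, which is 0.0528% of those tested. Of these, 3 were higher in suspension (0.0113%) and 11 lower (0.0415%), and they stand for 13 genes, with adjusted p between 0.00216 and 0.0450. By the unadjusted p, 1772 probe sets lay under 0.05, where 1326 would by chance. The 3 suspension and 3 monolayer signals did not overlap for any of the 14, and 13 of the 14 pointed the same way at D1. Within each wash batch every one of the 14 kept its direction. Without the later wash run, which leaves 2 samples per culture, none of the 14 passed, and their differences ran from -1.95 to 2.59 on the log2 scale with the same directions. Leaving out 1 D2 sample at a time gave 5 to 21 probe sets, the fewest without monolayer replicate 3. This fit did not pair samples by replicate number. More probe sets passed with that number as a block, as given at the end, so statements that genes did not pass hold for the unpaired fit.

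**Figure D1:**
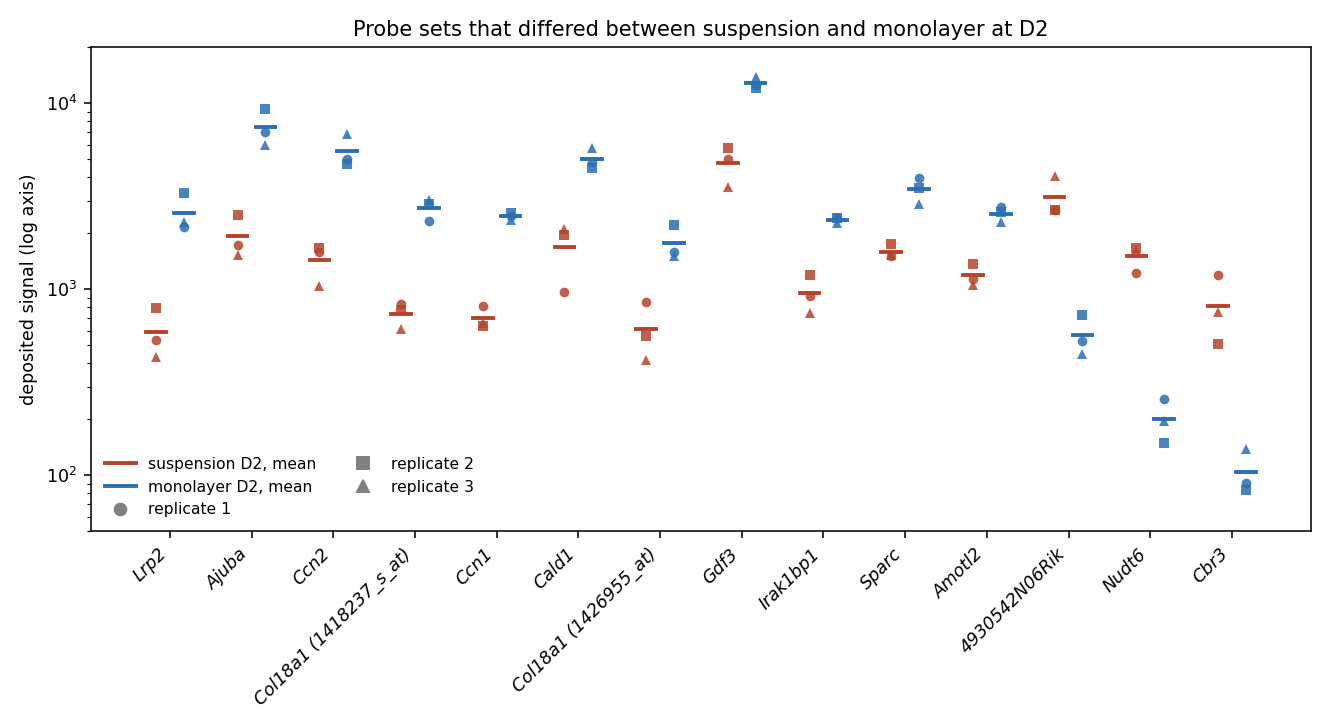
Deposited signal (log axis) of the 14 probe sets that differed at D2, in each suspension sample (red, left of each pair) and each monolayer sample (blue, right), with the mean as a bar and the replicate number as the symbol. The cultures do not overlap for any of them, and monolayer signals of Cbr3 and Nudt6 sit between 83.0 and 257.

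Among the YAP targets, 4 of 14 represented genes fell, each by a probe set with the highest signal of its gene (of 12727 represented genes, 0.0864% passed, 0.0629% falling and 0.0236% rising). Ccn2, a secreted matricellular protein, read 1588, 1679 and 1049 in suspension and 4998, 4744 and 6842 in monolayer, a log2 difference of -1.91 ± 0.20 (adjusted p = 0.00216). Every suspension value lay under every monolayer value, and replicate 3 was the lowest of the suspension samples and the highest of the monolayer ones. Ccn1, a matricellular protein of the same family, read 810, 638 and 662 in suspension and 2471, 2558 and 2373 in monolayer, a log2 difference of -1.75 ± 0.19 (adjusted p = 0.00314). Its other tested probe set differed by -1.65 ± 0.36 and did not pass (adjusted p = 0.192).

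Ajuba, a LIM-domain protein that binds the Hippo kinases and junctions, read 1724, 2526 and 1532 in suspension and 6986, 9343 and 5959 in monolayer, a log2 difference of -1.93 ± 0.23 (adjusted p = 0.00485). Replicate 2 was the highest of the 3 samples in both cultures. Amotl2, an angiomotin-family protein that binds YAP and is itself induced by it, read 1138, 1371 and 1061 in suspension and 2764, 2607 and 2293 in monolayer, a log2 difference of -1.07 ± 0.16 (adjusted p = 0.0225). Its within-batch differences, -1.16, -0.98 and -1.08, were among the most even of the 14.

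The 250 bases upstream of the RefSeq starts (GRCm38.p6) were searched on both strands for GGAATG, the hexamer at the core of TEAD sites, which reads CATTCC on the other strand. Of the 8 genes that fell and had an entry, 5 held a match in at least 1 of their windows, against 12.5% of 10261 represented genes with an entry, and 12.6% of 32851 windows in all. Because the genes were picked by their difference, the share is a description with no test. The 4 windows below are shown because they belong to 3 of the YAP-responsive genes and to Col18a1, with matches in capitals, 5′ to 3′ on the gene's strand, ending 1 base before the start. They lie at chr3:145649986-145650235 (minus strand) for Ccn1, chr14:54577662-54577911 (minus) for Ajuba, chr9:102717554-102717803 (plus) for Amotl2 and chr10:77113706-77113955 (minus) for the second of 2 Col18a1 starts.
Ccn1: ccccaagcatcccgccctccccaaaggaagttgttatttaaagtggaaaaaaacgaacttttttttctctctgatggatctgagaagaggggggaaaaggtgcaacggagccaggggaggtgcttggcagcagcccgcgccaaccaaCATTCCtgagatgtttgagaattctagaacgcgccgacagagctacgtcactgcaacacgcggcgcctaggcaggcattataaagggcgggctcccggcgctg
Ajuba: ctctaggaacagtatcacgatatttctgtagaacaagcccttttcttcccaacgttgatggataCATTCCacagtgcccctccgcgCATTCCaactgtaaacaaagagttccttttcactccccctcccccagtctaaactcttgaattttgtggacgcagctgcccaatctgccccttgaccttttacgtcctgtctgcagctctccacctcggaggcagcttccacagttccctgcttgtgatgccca
Amotl2: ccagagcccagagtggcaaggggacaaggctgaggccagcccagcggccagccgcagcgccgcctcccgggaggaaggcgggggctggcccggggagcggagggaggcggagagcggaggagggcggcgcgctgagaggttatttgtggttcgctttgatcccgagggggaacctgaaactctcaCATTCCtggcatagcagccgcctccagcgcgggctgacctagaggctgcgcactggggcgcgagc
Col18a1 second start: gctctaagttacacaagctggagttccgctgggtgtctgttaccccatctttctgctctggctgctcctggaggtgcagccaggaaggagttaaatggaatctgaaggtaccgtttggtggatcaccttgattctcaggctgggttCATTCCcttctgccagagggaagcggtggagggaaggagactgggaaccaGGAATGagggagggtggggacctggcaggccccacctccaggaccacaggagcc
The match in Ccn1 begins 103 bases upstream of the start, those in Ajuba 186 and 164 bases, that in Amotl2 65 bases and those in Col18a1 104 and 54 bases. Cald1 held 1 match at 1 of its 2 starts, and the windows of Sparc, Lrp2 and Irak1bp1 held none of these letters. Among the genes that rose, 4930542N06Rik held a match and Cbr3 and Nudt6 did not. A match is a run of letters and was not tested as a bound site.

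The other 10 represented YAP targets did not pass in the main fit. Ptpn14, a phosphatase that binds YAP, read 7554, 9254 and 8952 in suspension and 12763, 19344 and 11622 in monolayer, a log2 difference of -0.73 ± 0.21. Wwc1, the scaffold KIBRA, read 1036, 1066 and 1340 in suspension and 1813, 2011 and 2146 in monolayer (-0.77 ± 0.16, adjusted p = 0.142). Nt5e, an ecto-enzyme, pointed the other way without overlap, at 5433, 3943 and 6141 in suspension and 2495, 2172 and 2708 in monolayer (1.02 ± 0.38). Over the 14 YAP targets, 11 lay below 0 and 3 above, 7 had suspension wholly under monolayer and 1 wholly over it, and the median was -0.72. Of all represented genes, 50.4% lay below 0 and 49.6% above, 7.21% had suspension wholly under monolayer and 7.05% wholly over it, with a median of -0.00. Within the wash batches the median of the YAP targets was -0.77, -0.06 and -0.66, so the batch of suspension 2 and monolayer 1 showed almost no difference. It was -0.27 without the later wash run, -0.37 without suspension replicate 3, -0.39 with a larger offset on the log scale and -0.47 with each gene's tested probe sets averaged.

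Genes listed as Hippo pathway components did not pass. Ajuba, Amotl2, Ptpn14 and Wwc1 were counted with the YAP targets and not here, so the counts depend on that choice. Of 17 represented components 0 passed, the median was -0.09 and 0 had suspension wholly under monolayer. In 2, Amot and the cadherin gene Fat4, suspension lay wholly over it, against 7.05% of all represented genes. Yap1 differed by -0.12 ± 0.19, its paralogue Wwtr1 by -0.28 ± 0.22, the DNA-binding partner Tead1 by -0.20 ± 0.35 and Tead2 by -0.33 ± 0.19. Amot, the angiomotin that tethers YAP, was high in suspension at 5116, 2486 and 4083, against 1647, 1364 and 1152 in monolayer (1.41 ± 0.28, adjusted p = 0.142). Its relative Amotl2 fell, as given above.

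**Figure D2:**
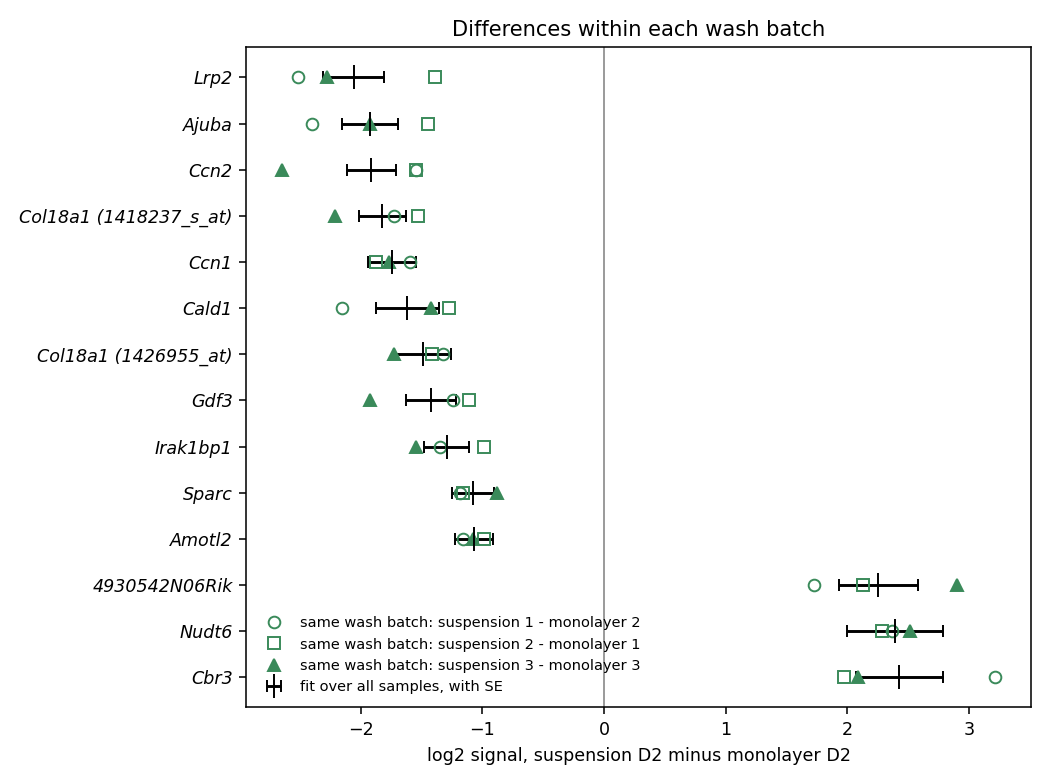
Log2 difference between suspension D2 and monolayer D2 for the 14 probe sets, within each of the 3 wash batches (green symbols, 1 suspension and 1 monolayer sample each) and as fitted over all samples (black, with its SE). Each symbol lies on the same side of 0 as its fit, and Ccn2 ranges from -1.55 to -2.65.

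Among 26 represented genes of actin, tropomyosin and other SRF targets, Cald1 fell and the others did not pass. Caldesmon, its product, binds actin and tropomyosin and restrains myosin. Cald1 read 973, 1965 and 2112 in suspension and 4819, 4515 and 5764 in monolayer, a log2 difference of -1.62 ± 0.26 (adjusted p = 0.0424), with suspension replicate 1 the lowest. Its 3 other tested probe sets also lay below 0, at -2.38, -1.01 and -0.65, and none passed. Tpm1, a tropomyosin, read 1997, 2647 and 2015 in suspension and 3893, 8615 and 6233 in monolayer (-1.41 ± 0.26, adjusted p = 0.0903). Tagln, the actin-binding protein transgelin, read 202, 149 and 310 in suspension and 714, 758 and 1355 in monolayer (-1.86 ± 0.40, adjusted p = 0.176). Myh9, the nonmuscle myosin heavy chain, differed by -0.78 ± 0.20.

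Of the other members, Fhl2 and Cnn2 also lay wholly under monolayer, without passing. Actb read 75621, 89640 and 79199 in suspension and 90829, 83741 and 90284 in monolayer, with overlap (-0.12 ± 0.15). Zyx, the focal adhesion protein zyxin, lay wholly above monolayer, at 6019, 5791 and 6056 in suspension and 4710, 3985 and 3970 in monolayer (0.50 ± 0.16), and did not pass. The list's median was -0.11, with 17 members below 0 and 9 above, and 6 wholly under monolayer, as were 7.21% of all represented genes.

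In the matrix, Col18a1 and Sparc fell. Col18a1, a basement membrane collagen, read 835, 772 and 616 in suspension and 2324, 2892 and 3038 in monolayer by its brightest probe set, a log2 difference of -1.82 ± 0.19 (adjusted p = 0.00216). Its other tested probe set also passed, at -1.49 ± 0.24 (adjusted p = 0.0406). Sparc, a collagen-binding glycoprotein, read 1513, 1749 and 1527 in suspension and 3983, 3505 and 2862 in monolayer by 1 of its probe sets (-1.08 ± 0.17, adjusted p = 0.0450). Its brightest probe set differed by -0.70 ± 0.19 and a further one by -0.44 ± 0.37, and neither passed.

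Fn1, fibronectin, lay in the other direction, at 5853, 4184 and 5844 in suspension and 2747, 2875 and 3088 in monolayer, without overlap (0.84 ± 0.20, adjusted p = 0.212). Serpinh1, the collagen chaperone, differed by -0.52 ± 0.13 and the heparan sulphate proteoglycan gene Agrn by -0.87 ± 0.24. Over 20 represented matrix genes 1 fell by its brightest probe set, 11 lay above 0 and 9 below, and the median was 0.01. The laminin, nidogen and type IV collagen genes Lamb1, Nid2 and Col4a2 differed by 0.23 ± 0.20, 0.11 ± 0.14 and 0.14 ± 0.19. Integrin subunits, the receptors for this matrix, had 0 of 9 past the test and a median of 0.04, with Itgb1 at 0.00 ± 0.17 and Itga6 at -0.40 ± 0.19. Of 18 junction and epithelial adhesion genes 0 passed: Cdh1, E-cadherin, differed by -0.53 ± 0.27, the keratin gene Krt18 by -0.83 ± 0.20, Epcam by 0.32 ± 0.12 and the connexin gene Gjc1 by 1.01 ± 0.28.

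Lrp2, or megalin, a large endocytic receptor of epithelia, fell by 1 of its MOE430A probe sets, at 534, 799 and 432 in suspension and 2172, 3291 and 2289 in monolayer (-2.06 ± 0.25, adjusted p = 0.00485). The other MOE430A probe set read 18.3, 518 and 249 in suspension and 809, 2385 and 913 in monolayer (-2.47 ± 0.61, adjusted p = 0.264). The brightest, on MOE430B, read 3568, 1879 and 4447 in suspension and 2684, 2881 and 1865 in monolayer, with overlap (0.34 ± 0.29), so the gene's probe sets disagree. Irak1bp1, which encodes a partner of the signalling kinase IRAK1, read 921, 1189 and 750 in suspension and 2414, 2425 and 2286 in monolayer (-1.29 ± 0.19, adjusted p = 0.0225). The monolayer values were the closer together of the 2 sets.

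Gdf3, a TGF-beta family ligand made by pluripotent cells, read 5046, 5762 and 3566 in suspension and 12566, 12087 and 13841 in monolayer, a log2 difference of -1.43 ± 0.20 (adjusted p = 0.0128). Its MOE430A probe set read 5592, 6984 and 5028 in suspension and 8703, 10761 and 10629 in monolayer, without overlap, and did not pass (-0.78 ± 0.20, adjusted p = 0.318). It was 1 of 17 represented pluripotency genes to fall, and 0 rose in the main fit. Dppa4, a chromatin protein of pluripotent cells, read 1495, 1371 and 1549 in suspension and 682, 614 and 749 in monolayer (1.06 ± 0.18, adjusted p = 0.0769). It passed in limma with no variance trend (adjusted p = 0.0444), with array weights (0.0171) and with the replicate number as a block (0.0311). Its partner Dppa2 read 557, 419 and 792 in suspension and 244, 93.6 and 198 in monolayer without overlap and did not pass, and Klf2 differed by 1.00 ± 0.27. The list's median was 0.10, with 6 members wholly above monolayer and 4 wholly below it, against 7.05% and 7.21% of all represented genes.

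The 3 genes that rose had low monolayer signals at D2. Cbr3, a carbonyl-reducing enzyme, read 1195, 507 and 755 in suspension and 91.4, 83.0 and 138 in monolayer at D2 (2.43 ± 0.36, adjusted p = 0.0235). At D1 it averaged 1016 ± 189 in suspension and 950 ± 353 in monolayer (SD, n = 3), a log2 difference of 0.15 ± 0.36. The D1 monolayer values, 1252, 562 and 1034, lay above every D2 monolayer value. Of 15 represented genes controlled by the oxidative stress factor NRF2, Cbr3 was the 1 that passed. The pentose phosphate enzyme gene Pgd differed by 0.52 ± 0.15, the NRF2 gene itself, Nfe2l2, by 0.04 ± 0.15, and the list's median was -0.03.

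Nudt6, a nudix hydrolase whose gene runs antisense to Fgf2, read 1219, 1671 and 1630 in suspension and 257, 149 and 197 in monolayer at D2 (2.39 ± 0.40, adjusted p = 0.0406). At D1 it averaged 1847 ± 448 in suspension and 970 ± 239 in monolayer (SD, n = 3), a log2 difference of 0.85 ± 0.40. Its MOE430A probe set read 567, 663 and 800 in suspension and 421, 543 and 370 in monolayer at D2, without overlap, and did not pass (0.56 ± 0.28). The Fgf2 probe set was too dim to be tested, at 113, 121 and 70.0 in suspension and 31.1, 52.1 and 50.3 in monolayer.

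The transcript 4930542N06Rik read 2670, 2663 and 4057 in suspension and 526, 730 and 449 in monolayer at D2 (2.25 ± 0.32, adjusted p = 0.0128). At D1 the order was turned, at 1455, 2105 and 2924 in suspension and 2175, 3314 and 2722 in monolayer, with overlap. Its D2 difference exceeded that at D1 by 2.61 ± 0.46, which did not pass as an interaction of culture and stage (adjusted p = 0.836). For these 3 genes the monolayer signals at D2 lay under the median signal of their chip, 599.8 on MOE430A and 846.4 on MOE430B, and were not tested against background, so the sizes of the differences are uncertain.

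**Figure D3:**
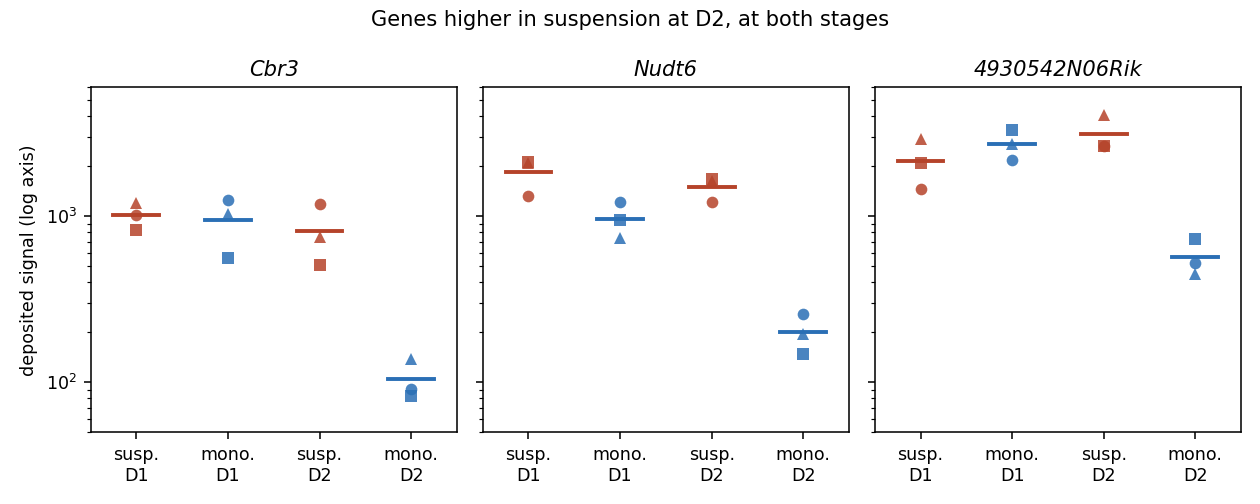
Deposited signal (log axis) of Cbr3, Nudt6 and 4930542N06Rik in every RNA sample, by stage and, within a stage, suspension (red) left of monolayer (blue), with group means as bars and replicate numbers as symbols. D2 monolayer samples sit lowest of the 4 groups in each panel.

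Across the 14 probe sets, the difference at D2 was set beside that at D1, which comes from separate samples but shares their estimate of the spread. Ccn2, Ccn1, Amotl2, Col18a1 and Gdf3, 5 probe sets in all, passed at both stages, with D1 differences of -1.63, -1.51, -1.23, -1.20 and -1.22. Ajuba differed by -1.37 ± 0.23 at D1 (adjusted p = 0.0536), Lrp2 by -1.40 ± 0.25 (adjusted p = 0.0893), Cald1 by -0.92 ± 0.26, Sparc by -0.69 ± 0.17 and Irak1bp1 by -0.65 ± 0.19. The interaction of culture and stage had 0 probe sets past limma's adjusted threshold, and 966 at an unadjusted p under 0.05. No gene was therefore shown to differ more between cultures at D2 than at D1.

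Genes of the primitive streak, where mesoderm and endoderm arise in the embryo, were higher at D2 in every represented member without passing. At D1 the list's median was 0.91, with 14 members above 0 and 1 below. Of 15, all lay above 0, 10 had suspension wholly above monolayer (7.05% of all represented genes did), 0 passed, and the median was 1.01. Fst, the activin antagonist follistatin, read 54342, 31021 and 66636 in suspension and 11770, 15781 and 9289 in monolayer (2.00 ± 0.37, adjusted p = 0.0769). Its difference at D1 did pass, at 2.26 ± 0.37 (adjusted p = 0.0423). Sp5, with the largest difference of the list, read 2603, 965 and 1441 in suspension and 106, 473 and 151 in monolayer (2.64 ± 0.48, adjusted p = 0.0903). Its monolayer signals lay under the chip's median. Wnt8a, a Wnt ligand of the early streak, read 1896, 1657 and 1735 in suspension and 755, 766 and 251 in monolayer (1.63 ± 0.33, adjusted p = 0.142). Foxa2, an endoderm factor, read 1746, 1092 and 1581 in suspension and 698, 516 and 436 in monolayer (1.34 ± 0.27, adjusted p = 0.142).

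Suspension replicate 2 was the lowest suspension sample for Fst, Wnt8a and Foxa2, and also for Cdx2, a posterior homeobox gene, which read 1334, 132 and 1000 in suspension and 24.4, 79.9 and 61.4 in monolayer. The list's median within the wash batches was 1.16, 0.60 and 1.75, and it was 1.40 without suspension replicate 2, 0.69 without monolayer replicate 3 and 0.63 with a larger offset. Of 23 represented Nodal and TGF-beta pathway genes, Gdf3 was the 1 that fell and 0 rose, with a median of -0.09, Nodal at 0.15 ± 0.18 and the receptor gene Tgfbr3 at 0.60 ± 0.20.

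**Figure D4:**
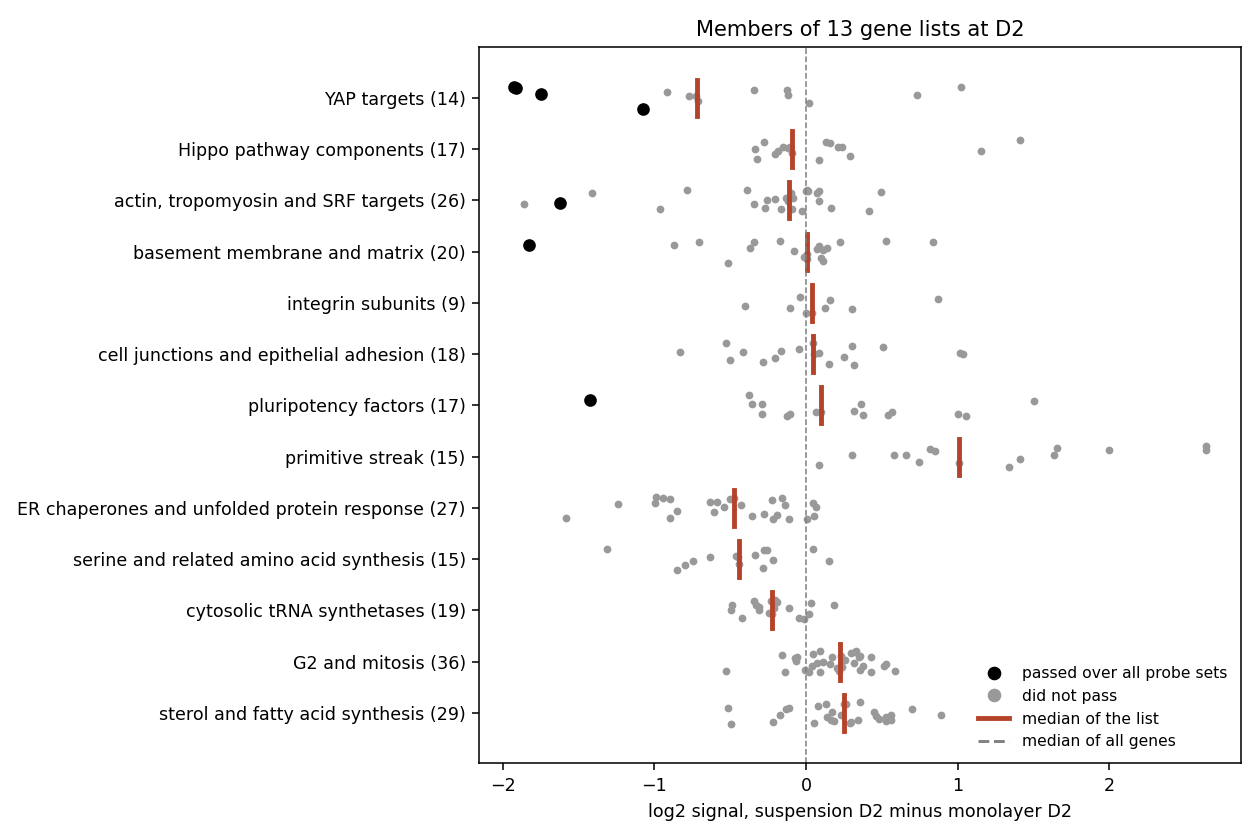
Log2 difference between suspension D2 and monolayer D2 of each represented member of 13 gene lists (number of members in brackets). Black points passed over all probe sets, grey ones did not, the red bar is the list's median and the dashed line that of all genes. YAP targets hold 4 black points and a median of -0.72, primitive streak genes a median of 1.01 with none.

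Genes that fold and export protein from the endoplasmic reticulum did not pass singly. Of 27 represented, 0 passed, 23 lay below 0, 13 had suspension wholly under monolayer and 0 wholly above, and the median was -0.48, against -0.01 at D1. Among all represented genes, 7.21% lay wholly under monolayer and 7.05% wholly above. Hsp90b1, the chaperone GRP94, read 10090, 12967 and 10520 in suspension and 16168, 18139 and 16715 in monolayer (-0.61 ± 0.14, adjusted p = 0.212). Pdia4, a disulphide isomerase, read 2730, 4145 and 3129 in suspension and 5318, 6184 and 7059 in monolayer (-0.89 ± 0.20). Derl3, which takes part in the removal of misfolded protein, read 1345, 2468 and 1411 in suspension and 5099, 4824 and 5434 in monolayer (-1.58 ± 0.33, adjusted p = 0.157). Hspa5, the central chaperone BiP, overlapped between cultures, at -0.14 ± 0.18. The list's median within the wash batches was -0.81, -0.23 and -0.49.

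Enzymes that make serine, one-carbon units, cysteine and asparagine showed the same sign. Of 15 represented, 0 passed, 13 lay below 0, 9 had suspension wholly under monolayer (7.21% of all represented genes did), and the median was -0.44, against -0.00 at D1. Psph, the last enzyme of serine synthesis, read 2275, 3417 and 2548 in suspension and 4279, 4584 and 4853 in monolayer (-0.74 ± 0.18, adjusted p = 0.249). Aldh1l2, a mitochondrial folate enzyme, read 2291, 5427 and 2965 in suspension and 6513, 12678 and 7236 in monolayer (-1.31 ± 0.38). Asns, asparagine synthetase, overlapped, at -0.22 ± 0.20. Without suspension replicate 1 the list's median was -0.29.

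Of 19 cytosolic tRNA synthetases 16 lay below 0, 7 wholly under monolayer (7.21% of all represented genes did), with a median of -0.22. Wars, the tryptophan enzyme, differed by -0.49 ± 0.15. Of 14 amino acid transporters 11 lay below 0 with a median of -0.22, and Slc7a1, the cationic amino acid carrier, differed by -0.71 ± 0.21. Of 15 stress transcription factors 13 lay below 0 with a median of -0.39. Cebpb read 889, 2290 and 1613 in suspension and 3350, 3676 and 2357 in monolayer (-1.02 ± 0.38), while Atf4, whose protein is mainly set by translation, overlapped at -0.07 ± 0.17. Within the wash batches the factors' median was -1.31, 0.07 and -0.13, and it was -0.20 without suspension replicate 1 and -0.15 without monolayer replicate 2. No member of these 3 lists passed.

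**Figure D5:**
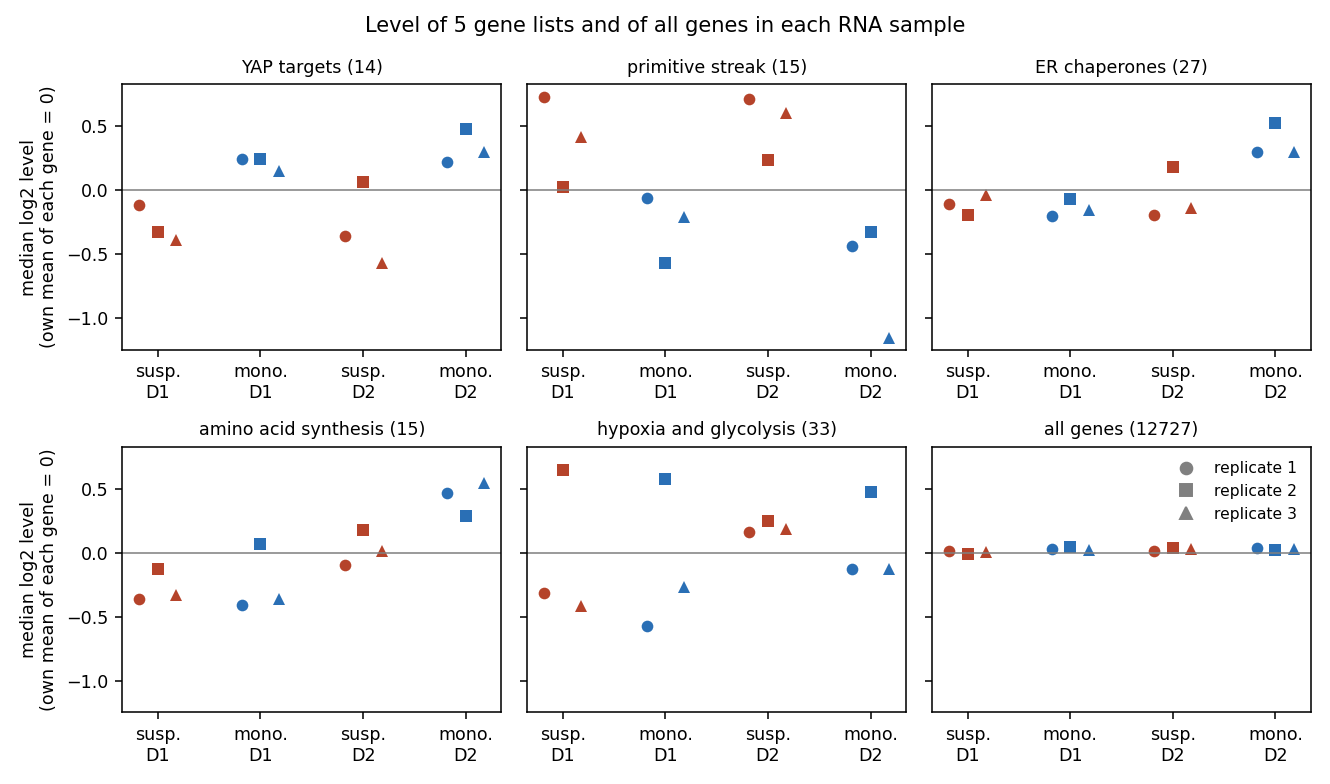
Level of 5 gene lists and of all genes in each RNA sample, as the median over members of log2 signal after each member's mean over the 12 samples was set to 0. ER chaperones and amino acid synthesis genes sit highest in D2 monolayer samples, and hypoxia and glycolysis genes sit highest in replicate 2 within each group.

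No gene of the cell cycle or lipid synthesis lists passed. Of 36 G2 and mitosis genes 29 lay above 0, with a median of 0.22, and 0 passed. Of these 36, 8 lay wholly above monolayer and 2 wholly below, against 7.05% and 7.21% of all represented genes. Of 36 S phase and replication genes 17 lay above 0 and 19 below, with a median of -0.02. Kif20a, a mitotic kinesin, read 3086, 2447 and 2765 in suspension and 1662, 2080 and 2018 in monolayer (0.52 ± 0.17). Of 29 sterol and fatty acid synthesis genes 23 lay above 0 with a median of 0.25 and 0 passed. Hmgcs1, an early enzyme of cholesterol synthesis, read 22502, 14408 and 17706 in suspension and 5874, 15797 and 9610 in monolayer, where monolayer replicate 2 overlapped suspension (0.89 ± 0.27). Fasn, the fatty acid synthase, did not overlap, at 6620, 6727 and 7263 in suspension and 4276, 5318 and 4706 in monolayer (0.53 ± 0.17). The sterol list's median was 0.14 without the later wash run, and that of mitosis was 0.15 without suspension replicate 1.

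Below the threshold, genes were named by the rank of their p among those without overlap and with a higher group mean over a signal limit, the 75th percentile (1719 for MOE430A, 1973 for MOE430B). Dppa4, Sp5 and Foxa2 had p-values within the range of those named but lay under that limit. On the lower side these were Bcam, a laminin receptor (-1.37 ± 0.24, adjusted p = 0.0719), the heparan sulphate enzyme gene Hs6st1 (-1.22 ± 0.22, adjusted p = 0.0879), Tpm1 as given, the palmitoyltransferase gene Zdhhc7 (-1.39 ± 0.27), Wwc1, the glycogenin gene Gyg (-1.01 ± 0.21), Med20 (-0.98 ± 0.20), the adhesion adaptor gene Bcar1 (-0.96 ± 0.20), Fkbp9 (-1.03 ± 0.21) and Derl3. Bcam read 649, 1075 and 559 in suspension and 1837, 2024 and 2083 in monolayer. On the higher side, after Fst, they were the chromatin protein gene Hmgb3 (0.99 ± 0.18, adjusted p = 0.0903), the planar polarity gene Prickle1 (1.05 ± 0.20, adjusted p = 0.101), Wnt8a, Amot, the antigen-loading gene Tapbp (1.22 ± 0.26), the membrane protein gene Ifitm1 (2.01 ± 0.42), the receptor gene Epha1 (1.27 ± 0.27), Dipk2a (1.10 ± 0.23) and the Polycomb gene Phc2 (0.76 ± 0.16). Ifitm1 read 9904, 4018 and 8907 in suspension and 2177, 1368 and 1716 in monolayer, with suspension replicate 2 the lowest of its group.

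Markers of other cell types did not pass the test. The summed signal of 6 represented fibroblast markers lay between 5142 and 6969 in suspension and between 4824 and 7529 in monolayer, with 0 of 6 past the test and a median difference of 0.16. Of 9 blood cell markers 0 passed, and their summed signal was 8032 to 8320 in suspension and 7174 to 7806 in monolayer. That sum did not overlap between cultures, and its part in the results was not tested. Of 8 trophoblast markers 0 passed, with sums of 11357 to 12931 in suspension and 5907 to 10340 in monolayer, again without overlap and not tested as a part of the results. Cdx2 and Eomes are among them and are also streak genes. The 2 endothelial markers Kdr and Flt1 differed by 0.46 and -0.15. Of 9 neural genes, 12 mesoderm and muscle genes and 12 primitive and visceral endoderm genes 0 passed by their brightest probe set, with medians of -0.12, 0.24 and 0.25. The summed signals of these 3 lists overlapped between cultures.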

How the data were processed

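Total RNA of P19 cells was measured on Affymetrix MOE430A and MOE430B arrays. The deposited values are linear signal intensities from MAS5, the tool named in the submitters' processing notes, whose version is not given in the sources used here. They had been scaled by the authors, since the 2% trimmed mean lay at 1501 on every MOE430A array and 1500.2 on every MOE430B array. Detection calls were not used here. Precision is limited by the number of arrays.

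Groups were taken from the sample labels. Values were log2(signal + offset), the offset being the 10th percentile of a chip's signals, 51.0 on MOE430A and 108.1 on MOE430B, so differences of dim genes are understated. Testing required a signal above the chip's median on 3 or more of 12 arrays, met by 12689 probe sets of MOE430A and 13827 of MOE430B. Controls were dropped, and 100 others present on both chips were counted from MOE430A. The contrast of suspension D2 minus monolayer D2 was fitted with limma 3.58.1 in R 4.3.3, with 1 mean per group, all 12 arrays of a chip sharing the spread, a variance trend and Benjamini-Hochberg adjustment over both chips. The fit was run on simulated data with noise independent between arrays, which cannot show how it handles replicate or wash batch effects. Controls were compared by exact permutation.

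Symbols came from the platform annotation, with 35067 probe sets on 1 symbol, 936 on several and 9262 unnamed here. For each of 12727 genes the brightest tested probe set stood for the gene. Named were the genes that passed, the 10 nearest on each side whose groups did not overlap and whose higher mean exceeded the chip's 75th percentile of signals, up to 4 members of each of 42 gene lists by lowest p, and Pou5f1, Nanog, Sox2, Cdh1 and Actb. Other list members are given as examples and were picked after their values were seen. The comparison, gene lists and rules were chosen with earlier results of these data known. Promoter sequences are RefSeq's on GRCm38.p6, where 11 of the 13 genes had an entry and Ccn2 and Gdf3 had none. Alternatives changed the samples in the fit, the offset, the scaling, the filter, the blocks, the weights, the variance model and the adjustment.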

Additional observations from a re-analysis of the deposited data

How the results depend on the processing

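The count of 14 probe sets at D2 lay between 10 and 18 with no offset, an offset at the chip's median, quantile normalization, median centring, no filter on dim probe sets, the wash batch as a block, no variance trend or adjustment within each chip. Without the variance trend the 16 split into 8 higher and 8 lower, and 10 of them were among the 14. The count was 6 with the D2 arrays alone (1 higher), 8 with only probe sets whose mean exceeded the 75th percentile (1 higher), where fewer were tested, 41 with array weights (16 higher) and 1 without the later wash run. Leaving out 1 D2 sample gave 5 to 21, the lowest being 5 with monolayer 3 left out, then 7 with monolayer 1 left out, and 9 with any of monolayer 2, suspension 1 and suspension 3 left out. The main fit did not pair samples by replicate number, and whether they are paired is not settled here. Deviations of same-numbered suspension and monolayer samples correlated at 0.058, 0.171 and 0.184 over both chips, and those of unlike numbers at -0.183 to 0.046. On MOE430A they correlated at 0.147, 0.218 and 0.290, and unlike numbers at -0.253 to 0.082. On MOE430B same numbers correlated at 0.032, 0.155 and 0.151. On MOE430A every sample correlated best with its own number, on MOE430B suspension 1 did not. Same-numbered D2 samples also share the scanner-file codes 12, 14 and 26, whose meaning is not given. With the replicate number as a block 89 passed (32 higher), with all 14 among them. These include Fst, Wnt8a, Foxa2, Sp5, Amot and Dppa4 (higher), and Derl3, Pdia3, Pdia4, Manf, Creld2, Hyou1, Aldh1l2, Tagln, Tpm1, Bcam and Krt18 (lower), none of which passed in the main fit. Counts of 0 for the streak, ER chaperone, Hippo, junction and serine lists therefore do not hold with this block. Nor do those of 0 rising pluripotency and Nodal genes, or of Cald1 alone in the actin list. Array weights, with no block, also passed Fst, Sp5, Dppa4, Derl3, Bcam and the YAP target Wwc1. The streak, ER chaperone and YAP target counts therefore fail there too, as do those of 0 rising pluripotency and Nodal genes. Dppa4 passed with no variance trend as well. With the replicate block on the D2 arrays alone, an alternative chosen after seeing the data, 52 passed (18 higher). The interaction had 0 in every fit that holds D1 arrays except 1 without the variance trend. The cause of these shifts was not tested. Of 3515 values of named genes under the alternatives, 3362 kept their direction of call and side of the threshold, 72 passed where they had not, 81 no longer passed and 0 calls were reversed. Each of the 14 kept its direction under every alternative, and Ccn2 passed in 19 of 20 and Nudt6 in 6 of 19. Of 880 list medians, 811 kept their sign. Without detection calls, signals below a chip's median limit what can be said of dim genes.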

Other observations

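Hspa1b, an inducible HSP70, read 8052, 8566 and 387 in suspension D2 samples and 594, 563 and 368 in monolayer D2 samples, differing by 2.51 ± 0.83 on the log2 scale without passing (adjusted p = 0.517). It was picked after its values were seen, because this probe set was the 1 that passed without the later wash run (3.73 ± 0.36, adjusted p = 0.0389). Its other 2 tested probe sets differed by 2.23 and 2.08. The gene has a nearly identical copy, Hspa1a, whose RNA this probe set may read. At D1 it lay between 471 and 873 in suspension and between 355 and 1211 in monolayer. Of 18 represented heat shock genes 0 passed, with a median of 0.13. Hsph1 lay wholly above monolayer, at 6061, 3679 and 3988 in suspension and 1981, 2401 and 2954 in monolayer (0.87 ± 0.43), and mitochondrial Hspa9 lay wholly below it, at -0.44 ± 0.16.

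As a set, hypoxia response and glycolysis genes were highest in replicate 2 of each group, though only slightly so in suspension D2 samples. Their median level, each gene's mean over the 12 samples set to 0, was 0.16, 0.25 and 0.19 in suspension D2 samples and -0.13, 0.47 and -0.12 in monolayer D2 samples. At D1 it was -0.31, 0.65 and -0.42 in suspension and -0.57, 0.58 and -0.27 in monolayer. Bnip3, a hypoxia-induced mitophagy gene, read 15444, 16444 and 17739 in suspension D2 and 8457, 19065 and 9108 in monolayer D2. The list had 33 represented genes, 24 above 0 and 0 past the test, with a median difference of 0.18, which was 0.33 without monolayer replicate 2.

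Immediate early genes diverged within 1 list. Ccn1 was the 1 of 14 that passed, and it fell, while Junb read 729, 563 and 604 in suspension and 279, 299 and 196 in monolayer and Dusp1, an ERK and p38 phosphatase, read 5379, 3976 and 3862 in suspension and 2675, 2929 and 2428 in monolayer. Neither overlapped between cultures and neither passed (1.15 and 0.70 on the log2 scale). A further 15 lists with 276 represented genes, among them Wnt, BMP and FGF pathway genes, S phase, ribosomal proteins and oxidative phosphorylation, held 0 genes that passed in the main fit, with medians from -0.16 to 0.33. In other fits some members passed, such as Sp5 and the imprinted gene Plagl1 with the replicate block, and Sp5 and Epha1 with array weights.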
